A study of Mus musculus with 18 samples.

Results

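The genes described here are 10 imprinted genes of the mouse (H19, Igf2, Igf2r, Meg3, Dlk1, Peg3, Mest, Plagl1, Cdkn1c and Grb10), and the question was which of them were on or silent in each group of fibroblasts. They were chosen by name, by taking the loci whose gene column holds the symbol, which gave 1 locus for each of the 10 genes among 51499 loci. RNA had been sequenced from mouse embryonic fibroblasts (MEFs) that carry the genotype label Ago2+/+ or Ago2-/-, where Ago2 encodes the slicing Argonaute protein of RNA interference. Cells had received the solvent DMSO, tunicamycin, which blocks N-glycosylation in the endoplasmic reticulum (ER), or thapsigargin at 500 nM, which depletes ER calcium, giving 6 groups of 3 libraries. The experiment asked how AGO2 acts on mRNAs under ER stress. By the methods, tunicamycin was used at 3 µg/ml and both stressors for 6 h, and the control cells, labelled DMSO, are called untreated. The cells are described there as a gift from another laboratory, without strain, clone or the removed stretch of Ago2. The methods name a laboratory in Regensburg as their source, whereas the reporting summary names one in Cambridge. The reporting summary adds that lines were not authenticated, and that loss of AGO2 from the Ago2-/- cells had been checked by western blot. It speaks of biological replicates in each experiment, and whether the libraries came from separate cultures is not described further.

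The deposited level is FPKM (the count of sequenced fragments divided by transcript length and library size), with 1 estimate per group pooled by the authors over its libraries. It therefore carries no SD, the depth of the libraries is unknown, and no difference below could be tested against the spread between replicates. FPKM is scaled for length, so levels can be set side by side between genes. A gene is called on at 1 FPKM or more, low from 0.1 to below 1 FPKM, and silent below 0.1 FPKM. An exact 0 is given as listed at 0.

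The group labels went against the data, so that every group is named here by its label only. Library titles name the groups called Ago2+/+ here DCR1, without giving a reason. Ago2 was lowest in Ago2+/+ tunicamycin (5.75 FPKM) and Ago2-/- DMSO (5.61 FPKM), and lay between 15.5 and 22.1 FPKM in the other 4 groups, which include both remaining groups labelled Ago2-/-. The locus of Xist, the RNA that silences an X chromosome in female cells, was at 46.6 FPKM in Ago2+/+ DMSO and 33.5 in Ago2-/- thapsigargin and below 0.1 FPKM elsewhere. The 4 Y-linked genes examined were above 6 FPKM in Ago2+/+ thapsigargin and Ago2-/- tunicamycin and listed at 0 in the other 4 groups. For 4 of the 18 libraries the labels conflict on genotype, and the pooled estimates give no way to leave them out. Of 9 fibroblast markers 8 were on in some group and 6 in all groups, while Thy1 was listed at 0 throughout. None of 11 epithelial, endothelial, pluripotent or germ cell markers was on in any group, and of 3 blood markers Cd68 was on in all, at 1.13 to 1.82 FPKM.

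An imprinted gene is transcribed mainly from the copy inherited from the mother or from the father, because DNA methylation laid down in the germ line marks a control region differently on both copies. Many imprinted genes act on fetal growth: genes expressed from the paternal copy, such as Igf2, tend to promote it, and genes expressed from the maternal copy, such as Igf2r, Cdkn1c, Grb10 and H19, tend to restrain it. Several of them are high in the embryo and fall after birth. FPKM sums both copies, so that imprinting itself was not measured here.

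For orientation, sequence upstream of a RefSeq transcription start is printed for 5 of the genes (GRCm38.p6, 5′ to 3′ on the strand of the gene, CpG dinucleotides in capitals). Grb10, Plagl1 and Mest are shown because they were on in the same groups. Cdkn1c was on in those groups too, but no RefSeq window was available for it. Peg3 is shown because it was on in different groups, and Igf2r because it was on in every group. The stretches lie at chr11:12037421-12037670 (minus strand) for Grb10, chr10:13090582-13090690 (plus strand) for Plagl1, chr6:30737800-30738049 (plus strand) for Mest, chr7:6730432-6730669 (minus strand) for Peg3 and chr17:12769707-12769956 (minus strand) for Igf2r. They hold no annotated exon of these genes. Those of Plagl1 and Peg3 were cut before the first annotated exon, so they end short of the RefSeq start.
Grb10: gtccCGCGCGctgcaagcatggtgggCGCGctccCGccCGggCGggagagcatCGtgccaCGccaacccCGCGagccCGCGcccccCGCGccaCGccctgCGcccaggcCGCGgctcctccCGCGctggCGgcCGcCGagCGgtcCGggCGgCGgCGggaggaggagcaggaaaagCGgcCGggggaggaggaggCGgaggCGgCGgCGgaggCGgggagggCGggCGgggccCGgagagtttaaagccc
Plagl1: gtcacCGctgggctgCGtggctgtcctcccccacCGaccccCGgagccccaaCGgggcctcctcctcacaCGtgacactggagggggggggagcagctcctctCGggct
Mest: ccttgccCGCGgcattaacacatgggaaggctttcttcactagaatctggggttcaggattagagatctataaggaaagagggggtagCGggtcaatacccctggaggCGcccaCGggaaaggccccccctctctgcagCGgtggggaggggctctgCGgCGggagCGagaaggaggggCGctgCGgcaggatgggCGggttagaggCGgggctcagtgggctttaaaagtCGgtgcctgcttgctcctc
Peg3: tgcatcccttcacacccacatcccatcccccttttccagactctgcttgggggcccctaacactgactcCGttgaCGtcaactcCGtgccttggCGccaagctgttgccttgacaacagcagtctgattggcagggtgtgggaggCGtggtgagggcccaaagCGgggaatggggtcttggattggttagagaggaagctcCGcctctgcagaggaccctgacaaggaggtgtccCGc
Igf2r: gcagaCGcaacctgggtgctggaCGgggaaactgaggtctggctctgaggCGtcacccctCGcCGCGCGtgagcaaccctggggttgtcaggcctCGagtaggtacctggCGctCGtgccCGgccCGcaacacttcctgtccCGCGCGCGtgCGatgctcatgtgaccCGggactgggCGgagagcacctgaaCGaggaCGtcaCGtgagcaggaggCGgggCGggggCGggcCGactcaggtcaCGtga

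The stretch of Grb10 holds 40 CpG in 250 bases. Of the 32851 promoter windows of that length in the RefSeq table, 98.9% hold as many or fewer, and their median is 6. The stretch of Igf2r holds 27 CpG in 250 bases and that of Mest 14. The shorter stretches of Plagl1 and Peg3 hold 7 CpG in 109 bases and 8 in 238 bases, and their full 250-base windows hold 19 and 8. The GC box letters GGGCGG, searched on both strands with overlaps, occur 5 times in the printed window of Grb10, 3 times in that of Igf2r, 2 times in the full 250-base window of Plagl1, 1 time in the printed window of Mest, and not in that of Peg3. Another RefSeq start of Grb10 has a window with 8 CpG and no match. Mest has further windows with 7 and 14 CpG and 1 match each. At least 1 match is found in 32.7% of all windows. A match describes these letters and is neither a bound site nor a cause. The RefSeq table gave windows for 8 of the 10 genes, and none for H19 and Cdkn1c. Methylation was not measured in this experiment.

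Across the 6 groups the 10 genes gave 60 estimates, of which 17 were on, 8 were low and 35 were silent, with 20 of the silent ones listed at 0. Igf2r was on in all 6 groups. Cdkn1c, Grb10, Plagl1 and Mest were on in the groups labelled Ago2+/+ thapsigargin and Ago2-/- tunicamycin only, and H19 in Ago2-/- tunicamycin only. Peg3 was on in the groups labelled Ago2+/+ tunicamycin and Ago2-/- DMSO only. Igf2, Dlk1 and Meg3 were on in no group.

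**Figure D1:**
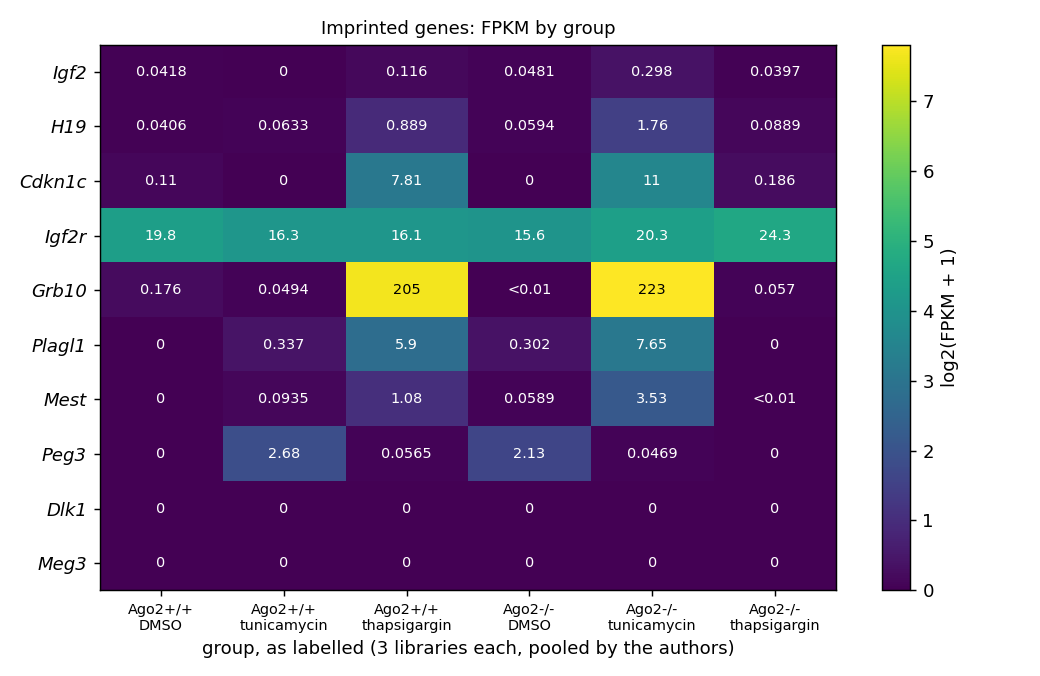
Level of the 10 imprinted genes (rows) in the 6 groups as labelled (columns). The number in each cell is the authors' pooled FPKM and the colour is log2(FPKM + 1). Igf2r is of similar colour in all 6 columns, Grb10 stands out in the Ago2+/+ thapsigargin (205 FPKM) and Ago2-/- tunicamycin (223 FPKM) columns, and Dlk1 and Meg3 are 0 throughout.

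Igf2 encodes the fetal growth factor IGF2 and lies on the minus strand of chromosome 7, from 142650766 to 142666816 (GRCm38). Under DMSO its level was 0.0418 FPKM with the label Ago2+/+ and 0.0481 with the label Ago2-/-. Under tunicamycin it was listed at 0 with the label Ago2+/+ and reached 0.298 FPKM with the label Ago2-/-, and under thapsigargin the values were 0.116 and 0.0397 FPKM in that order. Igf2 thus stayed below the level called on everywhere, and its highest values were in Ago2-/- tunicamycin and Ago2+/+ thapsigargin. The locus also holds AC013548.1, so fragments of both are in 1 value.

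H19 is a spliced RNA without a protein product, transcribed downstream of Igf2 and coupled to it by a shared control region (chromosome 7, 142575529 to 142578143, minus strand). With the label Ago2+/+ its level was 0.0406 FPKM under DMSO, 0.0633 under tunicamycin and 0.889 under thapsigargin, and with the label Ago2-/- it was 0.0594, 1.76 and 0.0889 FPKM in the same order of treatments. The group labelled Ago2-/- tunicamycin was the highest, Ago2+/+ thapsigargin came next below the level called on, and the other 4 were silent. H19 carries Mir675 in its first exon, and the deposited locus is shared by both names. The mature miRNAs are printed to identify this host (RefSeq, GRCm38.p6, seed bases 2 to 8 in capitals), and their levels were not measured.
mmu-miR-675-5p: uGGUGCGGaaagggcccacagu
mmu-miR-675-3p: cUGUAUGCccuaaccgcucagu

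Cdkn1c encodes p57, an inhibitor of cyclin-dependent kinases that holds cells out of the cycle, and lies in the same imprinted stretch of chromosome 7 (143458339 to 143461050, minus strand). It was at 7.81 FPKM in Ago2+/+ thapsigargin and 11.0 in Ago2-/- tunicamycin. It was low in Ago2+/+ DMSO (0.11 FPKM) and Ago2-/- thapsigargin (0.186 FPKM), while Ago2-/- DMSO and Ago2+/+ tunicamycin were listed at 0. The gene was therefore on in 1 group of each genotype label, under a different stressor in each.

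Igf2r encodes the receptor that carries IGF2 to the lysosome for breakdown and also sorts lysosomal enzymes (chromosome 17, 12682406 to 12769664, minus strand). With the label Ago2+/+ it measured 19.8 FPKM under DMSO, 16.3 under tunicamycin and 16.1 under thapsigargin, and with the label Ago2-/- 15.6, 20.3 and 24.3 FPKM in the same order of treatments. The highest group was 1.56 times the lowest, a span of 0.61 on the log2(FPKM + 1) scale. No spread is known, so no order among these 6 levels can be called. Airn, the imprinted RNA transcribed from the opposite strand across the start of Igf2r, was at 0.803 FPKM in Ago2-/- thapsigargin, where Igf2r was highest, and between 2.15 and 7.06 FPKM in the other groups. The sources used here do not state whether libraries were stranded, and without strand fragments from the overlap of Igf2r and Airn cannot be told apart.

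Grb10 encodes an adaptor protein that binds the insulin and IGF1 receptors and dampens their signal (chromosome 11, 11930508 to 12038683, minus strand). It had the highest level of the 10 genes, at 205 FPKM in Ago2+/+ thapsigargin and 223 in Ago2-/- tunicamycin. Elsewhere it measured 0.176 FPKM (Ago2+/+ DMSO), 0.0494 FPKM (Ago2+/+ tunicamycin), 0.00824 FPKM (Ago2-/- DMSO) and 0.0570 FPKM (Ago2-/- thapsigargin). The lowest and highest groups lay 7.80 apart on the log2(FPKM + 1) scale. Its locus overlaps no other annotated gene.

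Plagl1 encodes a zinc-finger transcription factor linked to arrest of the cell cycle (chromosome 10, 13060504 to 13131694, plus strand). It was at 5.90 FPKM in Ago2+/+ thapsigargin and 7.65 in Ago2-/- tunicamycin. It was low in Ago2+/+ tunicamycin (0.337 FPKM) and Ago2-/- DMSO (0.302 FPKM), and listed at 0 in Ago2+/+ DMSO and Ago2-/- thapsigargin. The low groups of Plagl1 were thus those in which Cdkn1c was listed at 0, and the reverse.

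Mest encodes a protein of the alpha/beta hydrolase fold (chromosome 6, 30723547 to 30748465, plus strand). Its level was 1.08 FPKM in Ago2+/+ thapsigargin and 3.53 in Ago2-/- tunicamycin. It was 0.0935 FPKM in Ago2+/+ tunicamycin, 0.0589 in Ago2-/- DMSO and 0.00762 in Ago2-/- thapsigargin, and listed at 0 in Ago2+/+ DMSO. The value of Ago2+/+ thapsigargin lies just above the level called on. Mest overlaps the oppositely transcribed Copg2, a coat protein gene of transport vesicles that was between 11.2 and 16.0 FPKM in all 6 groups, so a share of the fragments could not be told apart without strand. An intron of Mest carries Mir335, whose mature miRNAs are printed to identify this host (RefSeq, GRCm38.p6, seed bases 2 to 8 in capitals). Their levels were not measured either.
mmu-miR-335-5p: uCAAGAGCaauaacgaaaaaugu
mmu-miR-335-3p: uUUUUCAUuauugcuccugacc

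Peg3 encodes a large zinc-finger protein known for its roles in growth and maternal behaviour (chromosome 7, 6703892 to 6730431, minus strand). It was at 2.68 FPKM in Ago2+/+ tunicamycin and 2.13 in Ago2-/- DMSO. It was at 0.0565 FPKM in Ago2+/+ thapsigargin and 0.0469 in Ago2-/- tunicamycin, and listed at 0 in Ago2+/+ DMSO and Ago2-/- thapsigargin. Peg3 was thus silent in both groups in which Cdkn1c, Grb10, Plagl1 and Mest were on. Both groups with Peg3 on were also those with Ago2 near 6 FPKM. Whether these patterns are linked was not tested.

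Dlk1, which encodes a membrane protein related to the ligands of Notch, and Meg3, a long RNA without a protein product, are neighbours on the plus strand of chromosome 12 (109452823 to 109463336 and 109541001 to 109571726). Both were listed at 0 in all 6 groups. For comparison, none of 12 genes that every cell uses was listed at 0, and the lowest of their values was 26.1 FPKM, while between 58.8% and 59.5% of all loci were listed at 0 in a group. The locus of Meg3 also holds Gm27300, Mir1906-1 and Mir770. None of the 5 imprinted genes examined beside Dlk1 and Meg3 was on in any group. The highest of them was Mirg, a host RNA of miRNAs, at 0.830 FPKM in Ago2+/+ thapsigargin and 0.934 in Ago2-/- tunicamycin. Its locus also holds miRNA genes, among them Mir134.

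Counted by group, 1 of the 10 genes was on in Ago2+/+ DMSO, where 22.3% of all 51499 loci were on. In Ago2+/+ tunicamycin 2 were on (22.4% of all loci), and in Ago2+/+ thapsigargin 5 (22.5%). In Ago2-/- DMSO 2 were on (22.4% of all loci), in Ago2-/- tunicamycin 6 (22.6%) and in Ago2-/- thapsigargin 1 (22.4%). The share of all loci that was on was thus nearly level while the number of the 10 genes on ran from 1 to 6. A level share can hold different loci in each group. Members of both parental kinds were on together, as Cdkn1c and Grb10 are known for expression from the maternal copy in most tissues, and Plagl1 and Mest for expression from the paternal copy. In these bulk samples, fewer cells that express a gene and less of its RNA per cell cannot be told apart.

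Differences between groups were taken on the log2(FPKM + 1) scale, which understates the change of low genes. A locus was evaluated where either group had at least 1 FPKM, and a difference of at least 1 on that scale counts as 2-fold. Against a group listed at 0 the difference depends on the added 1 FPKM and is no fold change of the gene. It is given then only to place the gene on this scale. A gene that is silent in 1 group is evaluated only through the group where it is high and then nearly has to differ, so the counts below describe the 10 genes and support nothing about them. Beside each count stands the share of evaluated loci past 2-fold, which is not of the same kind, since the counts are out of all 10 genes whether evaluated or not. Taken out of all 51499 loci, the share past 2-fold was 0.311% to 4.75% in the 15 pairs of groups. Comparisons that share a group share its value.

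Tunicamycin against DMSO in the groups labelled Ago2+/+ left 1 of the 10 genes 2-fold or more apart, against 15.5% of all evaluated loci and 3.68% of all loci. This was Peg3, listed at 0 under DMSO and at 2.68 FPKM under tunicamycin, a difference of 1.88 on the log2(FPKM + 1) scale. Igf2r, the only other gene evaluated, differed by -0.27. The median difference over all 10 genes was 0, and over all evaluated loci it was 0.011.

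Tunicamycin against DMSO in the groups labelled Ago2-/- gave the largest count of the comparisons with DMSO, with 6 of the 10 genes past 2-fold, of 7 evaluated, against 19.7% of all evaluated loci and 4.75% of all loci. Higher were Grb10, by 7.80 on the log2(FPKM + 1) scale, Cdkn1c by 3.58, Plagl1 by 2.73, Mest by 2.1 and H19 by 1.38. Peg3 was lower, with a difference of -1.58. The sign for Peg3 was thus opposite to that in the groups labelled Ago2+/+, and this difference between the comparisons was not tested. The median over the 10 genes was 0.87, and over all evaluated loci 0.0046.

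Thapsigargin against DMSO in the groups labelled Ago2+/+ had 4 of the 10 genes past 2-fold, all higher and of 5 evaluated, against 14.4% of all evaluated loci and 3.42% of all loci. Grb10 was higher by 7.45 on the log2(FPKM + 1) scale, Cdkn1c by 2.99, Plagl1 by 2.79 and Mest by 1.06. H19 was higher by 0.86 without reaching 1 FPKM. The median over the 10 genes was 0.48, and over all evaluated loci 0.012. The difference for Mest lies just past the 2-fold limit and that for H19 just inside it.

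Thapsigargin against DMSO in the groups labelled Ago2-/- had 1 of the 10 genes past 2-fold, of 2 evaluated, against 15.8% of all evaluated loci and 3.77% of all loci. Peg3 was at 2.13 FPKM under DMSO and listed at 0 under thapsigargin, a difference of -1.65 on the log2(FPKM + 1) scale. Igf2r was 0.61 higher under thapsigargin, its largest difference among the 15 pairs of groups. Cdkn1c, Grb10, Plagl1 and Mest, which were higher under thapsigargin in the groups labelled Ago2+/+, were on in neither of these groups.

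Ago2-/- against Ago2+/+ under the same treatment likewise gave different counts by treatment. Under DMSO 1 gene of the 10 was past 2-fold, of 2 evaluated, against 15.8% of all evaluated loci (3.75% of all loci), and this was Peg3, higher in Ago2-/- by 1.65 on the log2(FPKM + 1) scale. Under tunicamycin 6 were past 2-fold, of 7 evaluated, against 19.1% of evaluated loci (4.61% of all loci). Of these Grb10 was higher in Ago2-/- by 7.74, Cdkn1c by 3.58, Plagl1 by 2.69, Mest by 2.05 and H19 by 1.38, while Peg3 was lower, with a difference of -1.81. Under thapsigargin 4 were past 2-fold, of 5 evaluated, against 15.3% of evaluated loci (3.63% of all loci), and all were lower in Ago2-/-. The differences were -7.60 for Grb10, -2.89 for Cdkn1c, -2.79 for Plagl1 and -1.05 for Mest. The same 4 genes were therefore higher in the group labelled Ago2-/- under tunicamycin and lower under thapsigargin, with no test of that difference.

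The other 8 pairs of groups differ in the stressor or in both labels. In 3 of them few loci of any kind were apart, with 1.36% of evaluated loci past 2-fold between Ago2+/+ tunicamycin and Ago2-/- DMSO, 1.4% between Ago2+/+ thapsigargin and Ago2-/- tunicamycin, and 2.35% between Ago2+/+ DMSO and Ago2-/- thapsigargin. Of the 10 imprinted genes 0 were past 2-fold in the first pair, 1 in the second and 0 in the third. Only 2, 6 and 1 of them were evaluated there, as a gene below 1 FPKM in both groups could not count. The gene past 2-fold was Mest, with a difference of -1.12 on the log2(FPKM + 1) scale for Ago2+/+ thapsigargin against Ago2-/- tunicamycin. Each of these pairs joins the group labels across genotype and treatment, and the levels of Ago2, Xist and the Y-linked genes given above fall into the same pairs. What part the labels have in this was not tested.

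In the remaining 5 pairs between 1 and 5 of the 10 genes were past 2-fold. Ago2+/+ tunicamycin and Ago2+/+ thapsigargin differed in 4, with Peg3 higher under tunicamycin and Cdkn1c, Grb10 and Plagl1 lower, against 17.5% of all evaluated loci. Ago2+/+ thapsigargin and Ago2-/- DMSO differed in the same 4 genes, with Peg3 lower in the former, against 18% of loci. Ago2-/- tunicamycin was higher than Ago2+/+ DMSO in 5 genes (15% of loci past 2-fold) and higher than Ago2-/- thapsigargin in 5 (16.2% of loci), namely H19, Cdkn1c, Grb10, Plagl1 and Mest both times. Ago2+/+ tunicamycin and Ago2-/- thapsigargin differed in Peg3 alone, against 15.7% of loci.

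**Figure D2:**
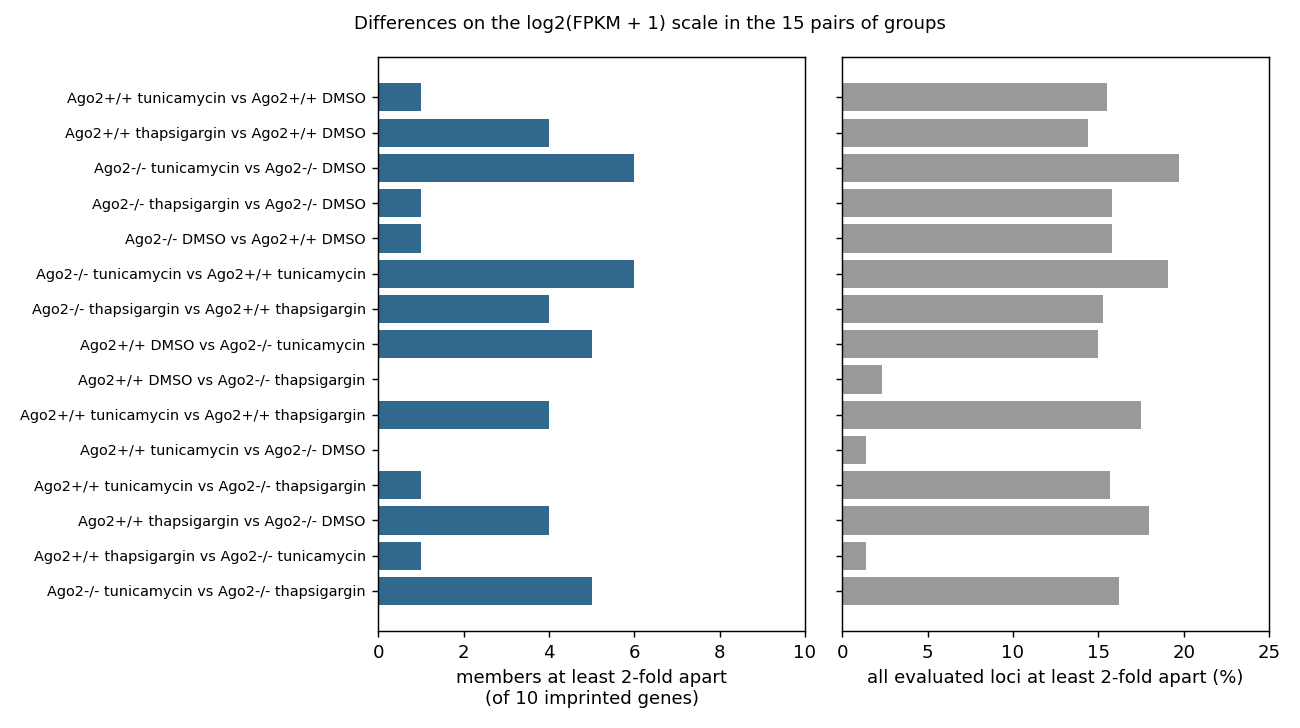
Number of the 10 imprinted genes at least 2-fold apart on the log2(FPKM + 1) scale (left, bars) and share of all evaluated loci at least 2-fold apart (right, bars, in %) in the 15 pairs of groups, named as labelled. The 3 pairs with the shortest bars on the right (1.36% to 2.35%) have 0, 0 and 1 of the 10 genes apart on the left.

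The genes whose pattern over the 6 groups lay nearest to each of Grb10, Cdkn1c, Plagl1 and Mest were found by the mean absolute difference of log2(FPKM + 1) after centring each locus on its own mean, among 13031 loci on in some group. For Grb10 the nearest was Myl9 (mean difference 0.18), a light chain of smooth muscle myosin, at 312 FPKM in Ago2+/+ thapsigargin and 252 in Ago2-/- tunicamycin and at most 0.251 FPKM elsewhere. Cnn1, the smooth muscle calponin (0.46), and Fbln5, an elastic fibre protein (0.50), followed. For Cdkn1c the nearest were the matrix protease gene Adamts5 (0.053), the transcription factor gene Arnt2 (0.087) and 1500009L16Rik (0.088). For Plagl1 they were Zfp503 (0.065), the sulfatase gene Sulf1 (0.087) and Cdh11, a cadherin of mesenchymal cells (0.12). For Mest they were the matrix protein genes Aspn (0.050) and Abi3bp (0.061), and Prss35 (0.068). Each of these 12 loci was higher in Ago2+/+ thapsigargin and Ago2-/- tunicamycin than in the other 4 groups, which their choice by pattern nearly fixed in advance. These are likenesses over 6 values and carry no test. With a pseudocount of 0.1 FPKM, 0 of the 3 loci named for Mest and 1 of the 3 named for Cdkn1c stayed among the nearest 3.

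**Figure D3:**
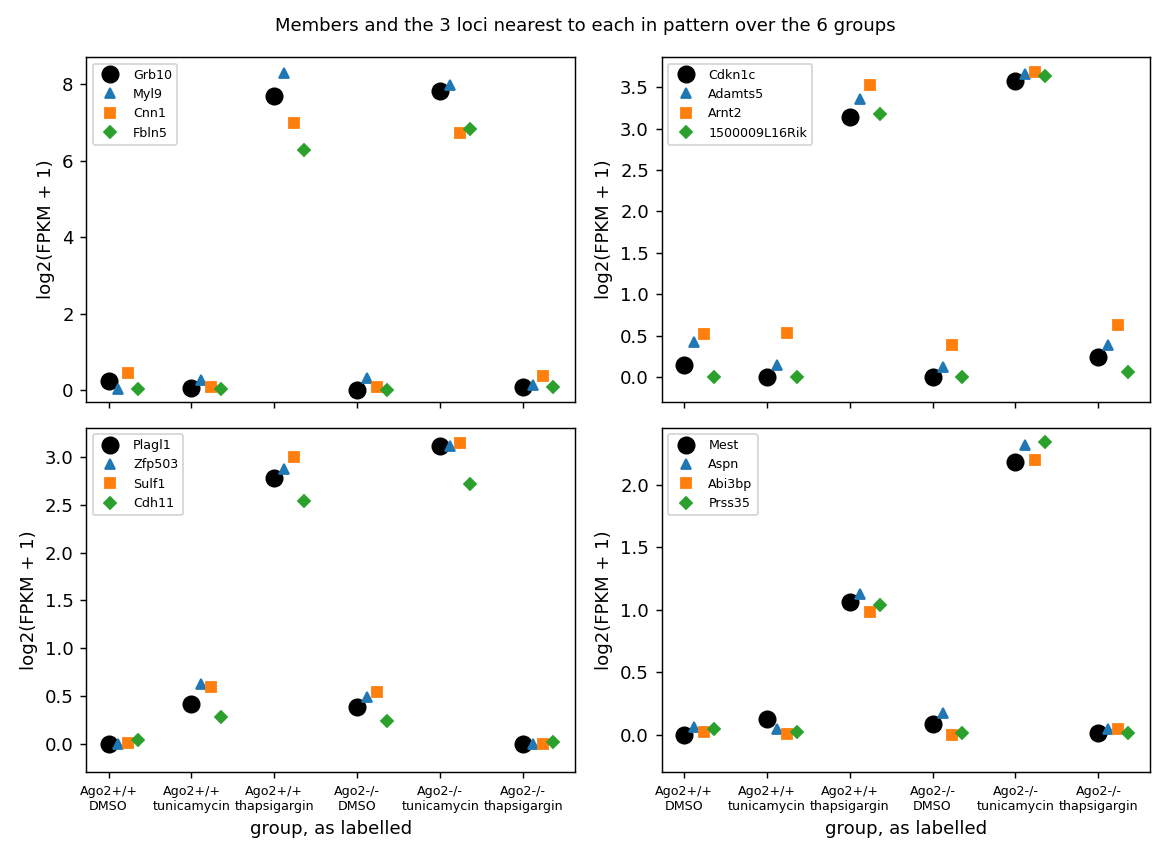
Level as log2(FPKM + 1) in the 6 groups as labelled for Grb10, Cdkn1c, Plagl1 and Mest (black circles, 1 panel each) and for the 3 loci nearest to each in pattern (coloured symbols, shifted sideways for legibility). In each panel the symbols are higher in Ago2+/+ thapsigargin and Ago2-/- tunicamycin than in the other 4 groups, where they are below 1. In the Mest panel they lie near 1 in Ago2+/+ thapsigargin.

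Among the fibroblast markers the collagen gene Col1a1 was high in the same groups as these genes, at 521 FPKM in Ago2+/+ thapsigargin and 651 in Ago2-/- tunicamycin against 5.97 to 112 FPKM in the other groups. Col1a2, Col3a1, Pdgfrb and Fn1 were likewise higher in both of those groups than in the other 4, with Fn1 at 567 and 600 FPKM against 46.4 to 326. Pdgfra was at 6.25 and 8.72 FPKM there, but also at 8.28 in Ago2-/- thapsigargin. Only S100a4 and Vim had the opposite order. S100a4, whose locus also holds Gm42674 and S100a3, was at 285 and 330 FPKM in those groups against 937 to 1967 elsewhere. Vim was at 1181 and 952 FPKM against 1290 to 2634. The 9 markers were grouped in this way after their values were seen. The summed level of the 9 fibroblast markers was 2999.5 and 3167 FPKM in those groups and 3522 to 3955 FPKM in the other 4. Such a sum mainly follows its most abundant genes. Of the 3 muscle markers, the skeletal muscle factor genes Myod1 and Myog were at or near 0 in every group and Des was on in Ago2+/+ DMSO and Ago2-/- thapsigargin, where Grb10 was not on. The part of cell state in the levels of the imprinted genes was not tested.

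A list of 54 further imprinted genes was set beside the 10, and 50 of them had a locus. Of these 17 were on in all 6 groups, 11 in some and 22 in none, and 6 were listed at 0 throughout (Ins2, Rtl1, Slc22a2, Slc22a3, Zfp264 and Klf14). Between 21 and 24 were on in a group. This count was nearly level where that of the 10 genes was not, but the genes behind it differed between groups. The 11 genes on in some groups only went in different directions, so group-dependent levels were not particular to the 10 genes. Gnas, which encodes the stimulatory G protein subunit, had the highest level of the list at 392 to 531 FPKM.

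Among neighbours of the 10 genes, Phlda2, a restrainer of placental growth close to Cdkn1c, measured 7.43, 3.63 and 0.352 FPKM under DMSO, tunicamycin and thapsigargin with the label Ago2+/+, and 5.89, 0.949 and 13.8 FPKM with the label Ago2-/-. It was below the level called on in both groups with Cdkn1c on, and on in the 4 others. Kcnq1ot1, the antisense RNA of that stretch, reached at most 0.426 FPKM. The neighbours Cd81, Tssc4, Nap1l4, Tnfrsf23 and Osbpl5 were on in all groups. Usp29, which shares a promoter region with Peg3, was at 0.445 FPKM in Ago2+/+ tunicamycin and 0.253 in Ago2-/- DMSO, the groups with Peg3 on, and at most 0.00408 elsewhere. Ddc beside Grb10 reached at most 0.0403 FPKM, so the gene next to the member with the highest level was silent throughout.

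Elsewhere in the genome Ndn, a growth suppressor gene of the Prader-Willi region, was at 11.2 FPKM in Ago2+/+ tunicamycin and 11.3 in Ago2-/- DMSO, and at most 0.0119 in the other 4 groups, in all of which Peg3 was silent. Snrpn and Sfmbt2 were the reverse: in the groups with Peg3 on, Snrpn was at 0.0828 and 0.207 FPKM and Sfmbt2 at 0.00257 and 0.00843 FPKM. In the other 4 groups Snrpn ranged from 1.74 to 8.23 FPKM and Sfmbt2 from 2.15 to 4.13 FPKM. The locus of Snrpn also holds Gm38393 and Snurf. The neighbours Peg10 and Sgce fell into another arrangement, with Peg10 at 1.22 and 0.390 FPKM in Ago2+/+ DMSO and Ago2-/- thapsigargin and at 17.0 to 27.8 FPKM elsewhere. Sgce was at 4.48 and 1.44 FPKM in those groups and at 12.2 to 20.0 elsewhere. Mcts2 was highest at 33.6 FPKM in Ago2+/+ tunicamycin and 37.8 in Ago2-/- DMSO, against 5.33 to 12.7 in the others.

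**Figure D4:**
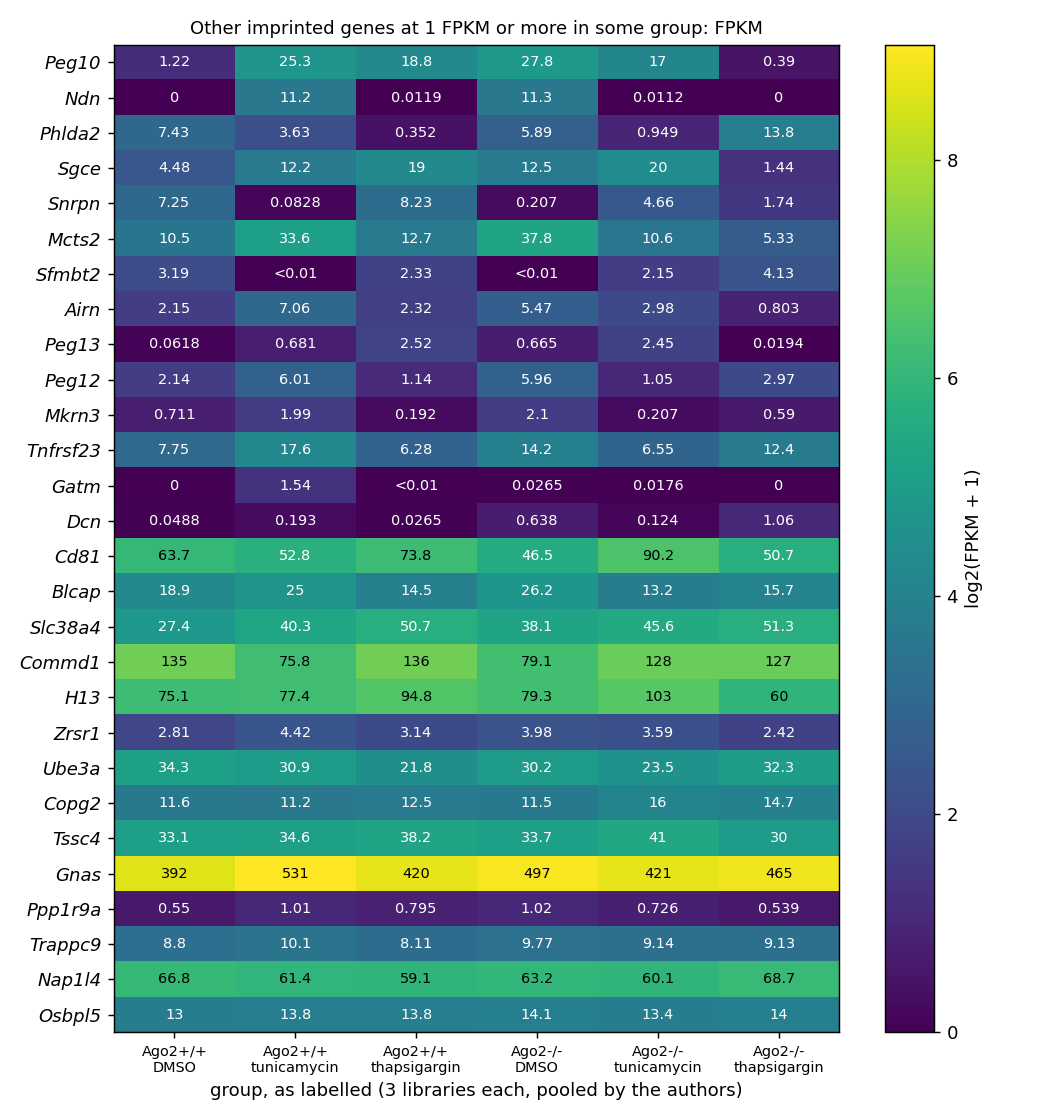
Level of the 28 further imprinted genes that reached 1 FPKM in some group (rows, ordered by their range) in the 6 groups as labelled (columns). Numbers are the authors' pooled FPKM and the colour is log2(FPKM + 1). Ndn is on only in Ago2+/+ tunicamycin (11.2 FPKM) and Ago2-/- DMSO (11.3 FPKM), whereas Gnas at the yellow end is on in all 6 groups.

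Past 2-fold among these 50 genes were 8 higher and 2 lower for tunicamycin against DMSO in the groups labelled Ago2+/+, and 3 higher and 6 lower in those labelled Ago2-/-. For thapsigargin against DMSO, 3 were higher and 1 lower in Ago2+/+, and 3 higher and 5 lower in Ago2-/-. Between the groups labelled Ago2-/- and Ago2+/+, 6 were higher and 2 lower under DMSO, 3 higher and 8 lower under tunicamycin, and 2 higher and 5 lower under thapsigargin. Of the 50 genes only 26, 26, 23, 26, 25, 27 and 24 were evaluated in these comparisons, in the order given. The shares of all evaluated loci past 2-fold are those given above for the same comparisons, from 14.4% to 19.7%. Out of all loci they were 3.42% to 4.75%.

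Beside Igf2, Igf2r and Grb10, a list of 7 genes of IGF signalling was examined, and all 7 were on in some group and 6 in all. Igf1r, the receptor that passes on the IGF signal, was between 8.83 and 12.9 FPKM, and Insr, the insulin receptor, between 5.21 and 9.09. The receptors were thus on in every group while the ligand Igf2 was on in none. Irs1, the docking protein below these receptors, was at 13.3 FPKM in Ago2+/+ tunicamycin and 10.2 in Ago2-/- DMSO, against 0.974 to 1.51 elsewhere. Igf2bp1, an mRNA-binding protein named for Igf2, was at 80.5 and 64.6 FPKM in those groups against 17.4 to 35.9 elsewhere. Tunicamycin against DMSO gave 3 of the 7 higher in Ago2+/+ and 4 lower in Ago2-/-, beside 15.5% and 19.7% of all evaluated loci past 2-fold. Thapsigargin against DMSO gave 1 lower in Ago2+/+ and 3 lower in Ago2-/-, beside 14.4% and 15.8% of loci. Between the genotype labels 1 was higher in Ago2-/- under DMSO, 4 were lower under tunicamycin and 1 was higher under thapsigargin, beside 15.8%, 19.1% and 15.3% of loci.

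Of 13 genes that write, maintain, remove or read DNA methylation, 10 were on in all groups. Dnmt1, the maintenance methyltransferase, was between 55.3 and 91.8 FPKM. Zfp57, which binds methylated imprint control regions, was between 42.1 and 85.5, and Trim28, its partner, between 198 and 255. Dnmt3l, a cofactor of new methylation in germ cells, was on at 2.19 FPKM in Ago2+/+ thapsigargin and 2.13 in Ago2-/- tunicamycin, the groups with Cdkn1c, Grb10, Plagl1 and Mest on, and between 0.117 and 0.245 elsewhere. Tet1, which oxidises methylcytosine, was on at 1.58 FPKM in both Ago2+/+ DMSO and Ago2-/- thapsigargin. Ctcfl, a relative of the insulator protein CTCF, was listed at 0 in all 6 groups. Tunicamycin against DMSO had 1 of the 13 past 2-fold and lower in Ago2+/+ and 2 higher in Ago2-/-, beside 15.5% and 19.7% of all evaluated loci. Thapsigargin against DMSO had 1 higher and 1 lower in Ago2+/+, and 2 higher in Ago2-/-, beside 14.4% and 15.8% of loci. Between the genotype labels 1 was lower in Ago2-/- under DMSO, 2 were higher under tunicamycin and 1 was lower under thapsigargin, beside 15.8%, 19.1% and 15.3% of loci.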

How the data were processed

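RNA sequencing of 18 libraries from mouse embryonic fibroblasts was analysed, 3 in each of 6 groups taken from the library titles. According to the methods, the authors mapped reads with HISAT2 to Ensembl release 91, assembled transcripts with StringTie and quantified them with Cufflinks. The submitters' processing notes name FastQC 0.11.7, HISAT2 2.1.0, StringTie 1.3.4d, Cuffdiff 2.2.1 and the build GRCm38. How libraries were scaled, and whether they were stranded, is not stated there. The deposited table holds, for each of 51499 loci, the 15 pairings of groups with the FPKM of both groups, pooled by the authors over libraries. Its other columns hold the authors' log2 fold change, test statistic, p-value, q-value and call for each pair, and none of these was used. The test had failed at 2 loci, neither of them described here. With 1 value per group, no SD, depth or test could be had. Whole reads could not be recovered from low values. Between 27.9% and 44.9% of 2000 low values per group were whole to within 0.1 at the step that suited them best, more than the 20% of a single step chosen blindly but far from nearly all.

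Differences were taken as log2(FPKM + 1), with a pseudocount of 1 FPKM, where either group had at least 1 FPKM, and a difference of at least 1 was counted as 2-fold. Counts out of the 10 genes are given beside the share past 2-fold of all evaluated loci and of all loci. Genes named are the 10 imprinted genes, members of the lists on at 1 FPKM with a range of at least 2 on that scale, neighbours of the 10 genes, and the 3 loci nearest in pattern. Gnas, Mirg, Dnmt1, Zfp57, Trim28, Dnmt3l, Tet1, Ctcfl, Igf1r, Insr and the markers were named outside this rule, after their values were seen. The 10 genes and the lists were chosen with earlier results of these data known. For 4 libraries the genotype labels conflict, namely replicate 2 under each treatment with the label Ago2+/+, and replicate 3 of Ago2-/- DMSO, and these were kept by title. Titles and table name the Ago2+/+ groups DCR1 without giving a reason. Overlaps were read from GENCODE annotation and sequences from RefSeq tables (GRCm38.p6). Alternatives were another pseudocount, no filter on low values, a 4-fold limit, centring on the median difference, other levels for on, summed loci, and loci of several genes left out. Python 3.11.15, pandas 2.3.3, numpy 2.4.6 and matplotlib 3.10.9 were used.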

Additional observations from a re-analysis of the deposited data

Results flagged for a closer look

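For 5 of the 10 imprinted genes a difference past 2-fold turned its direction between groups under the same contrast, and with 1 pooled value per group none of these turns was tested. Smaller differences turned too, among them those of H19 (1.38 under tunicamycin and -0.79 under thapsigargin, between the genotype labels) and Igf2r (-0.27 and 0.36, for tunicamycin against DMSO in Ago2+/+ and Ago2-/-). All differences are on the log2(FPKM + 1) scale, and those of Cdkn1c under tunicamycin, Plagl1 under thapsigargin, and Peg3 under DMSO and in the groups labelled Ago2+/+ are against a group listed at 0, so that they are no fold changes. Between the groups labelled Ago2-/- and Ago2+/+, Grb10 differed by 7.74 under tunicamycin and by -7.60 under thapsigargin. Cdkn1c differed by 3.58 and -2.89, Plagl1 by 2.69 and -2.79, and Mest by 2.05 and -1.05 in the same order. Of all 51499 loci 1.55% turned in this contrast by the same limit. Peg3 differed between the genotype labels by 1.65 under DMSO and by -1.81 under tunicamycin, a contrast in which 1.74% of all loci turned. For tunicamycin against DMSO, Peg3 differed by 1.88 in the groups labelled Ago2+/+ and by -1.58 in those labelled Ago2-/-, where 1.7% of all loci turned. The 4 Y-linked genes were likewise higher in Ago2-/- under tunicamycin and lower under thapsigargin, and Ago2 turned opposite to Peg3, with -1.81 under DMSO and 1.29 under tunicamycin between the genotype labels. Their part in these results was not tested.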

How the results depend on the processing

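Of the 140 differences of the 10 genes recomputed with a pseudocount of 0.1 FPKM or with centring, none past 2-fold changed sign. Igf2, silent in both groups, went from -0.012 to 0.0091 on the log2 scale with centring for thapsigargin against DMSO in Ago2-/-. With a 4-fold limit the count for Peg3 alone fell from 1 to 0 in 3 comparisons: tunicamycin against DMSO in Ago2+/+, thapsigargin against DMSO in Ago2-/-, and Ago2-/- against Ago2+/+ under DMSO. In the other 4 it left 3 or 4 genes, and 4.72% to 5.79% of all evaluated loci. With a pseudocount of 0.1 FPKM, 1 of the 3 loci nearest to Cdkn1c and 0 of the 3 nearest to Mest were kept, while the counts past 2-fold stayed within 1.5 times beside 19.1% to 24.9% of all evaluated loci. The counts of genes on stayed within 1.5 times with the level set at 0.5 or 2 FPKM, with loci summed, and with loci of several genes left out. H19 in Ago2+/+ thapsigargin counts as on at 0.5 FPKM, and Mest there no longer does at 2 FPKM. The counts past 2-fold stayed within 1.5 times without the filter on low values and with centring. No paired analysis was possible because the deposited values are pooled over the replicates of each group. For the same reason no replicate could be left out. The spread between libraries and their depth are unknown for every value.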
